A study of Mus musculus with 9 samples.

Results

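The genes that make cholesterol and fatty acids were followed across every library of a mouse pancreatic cancer cell line and of CRISPR clones made from it. The set held 34 genes of the 49671 in the deposited count table, each taken where its symbol equalled a listed name. By role they were 7 enzymes of the mevalonate steps, 12 enzymes of the sterol steps, 5 regulators of the pathway, 4 genes of cholesterol uptake, transport and export, and 6 enzymes of fatty acid synthesis. Of the 34, 31 passed the filter on low counts and were tested, and the other 3 (Abca1, Abcg1 and Mylip) lay below it.

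Poly(A) RNA of Panc02, a mouse pancreatic ductal adenocarcinoma line, was sequenced in bulk in 9 libraries, to ask what loss of VPAC2 does in these cells. VPAC2, encoded by Vipr2, is a receptor for vasoactive intestinal peptide that raises cyclic AMP. The 3 libraries called KO_1E7 came from a single CRISPR clone whose genotype label is a VPAC2 knockout. The 3 libraries called CRISPR_1G2 came from another single clone, labelled wild type after CRISPR, although the design text counts both clones as knockout clones. The 3 libraries called parental came from the unedited line. All were grown untreated in DMEM with 10% serum, and each clone stands for itself alone, so what the edit did and what a clone carried already cannot be told apart. Library 3 of each group has the letters NSG in its deposited name where libraries 1 and 2 have a date; what NSG stands for is not given. The dates tie some libraries across groups: KO_1E7 1 and parental 1 carry the same date, as do CRISPR_1G2 1 and parental 2, while KO_1E7 2 and CRISPR_1G2 2 each stand alone. What was done on those dates is not given.

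Cholesterol and the isoprenoids are built from acetyl-CoA through mevalonate, farnesyl pyrophosphate and squalene, and then through a series of sterol enzymes. Their genes are switched on together by the transcription factor SREBP2, and those of fatty acid synthesis mainly by SREBP1. Both factors are made as membrane proteins that SCAP carries out of the endoplasmic reticulum when sterols are scarce, while INSIG proteins hold SCAP back when sterols are plentiful.

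The libraries held between 27898705 and 51878289 counts on genes. Vipr2 was at 1, 2 and 1 counts in KO_1E7, 1, 13 and 12 in CRISPR_1G2 and 6, 3 and 12 in parental, too few to check the genotype labels. The gene model CT010467.1, an abundant RNA, took 15.3% of gene counts in parental 3 and 0.465% to 1.04% in the other libraries. Of the listed epithelial markers 8 of 8 were tested. They summed to 1167 to 1939 CPM (counts scaled to library size) in KO_1E7, 714 to 1974 in CRISPR_1G2 and 1134 to 1913 in parental. Krt8 and Krt18 made up most of these sums, and Epcam stood at 0.746 to 16.6 CPM. Mesenchymal markers, led by Vim and Fn1, summed higher, to 2592 to 3741 CPM in KO_1E7, 2028 to 3799 in CRISPR_1G2 and 3413 to 3935 in parental. Fibroblast markers summed to 70.0 to 143 CPM, 43.5 to 80.9 CPM and 71.9 to 86.5 CPM in the same order. Hepatocyte markers, from a tissue that makes much cholesterol, summed to at most 0.183 CPM, with Ttr and Serpina1a at 0 counts in every library. Adipocyte markers summed to 8.223 to 41.1 CPM in KO_1E7, 2.94 to 4.49 in CRISPR_1G2 and 3.12 to 6.14 in parental, with Plin4 the most abundant in each library and Adipoq at or below 0.367 CPM. Immune cell markers summed to 20.2 to 21.8 CPM in KO_1E7, 18.8 to 28.1 in CRISPR_1G2 and 3.34 to 21.7 in parental, with Ptprc at or below 3.85 CPM. The part of these levels in the results was not tested.

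The whole set was lower in parental 1 than in the other dated libraries, and lowest by far in parental 3 and CRISPR_1G2 3. Summed over all 34 genes it came to 10940, 9170 and 11170 CPM in KO_1E7, 11110, 10840 and 2541 CPM in CRISPR_1G2 and 6732, 10400 and 2611 CPM in parental, with the values of each group in the order of libraries 1, 2 and 3 here and in what follows. KO_1E7 3, which carries NSG in its name as those low libraries do, stood with the dated libraries of its own clone. In bulk RNA a lower value can mean fewer cells that express a gene or less RNA per cell, which cannot be told apart here. The plot of each gene by library shows the same columns of low values through every role.

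**Figure D1:**
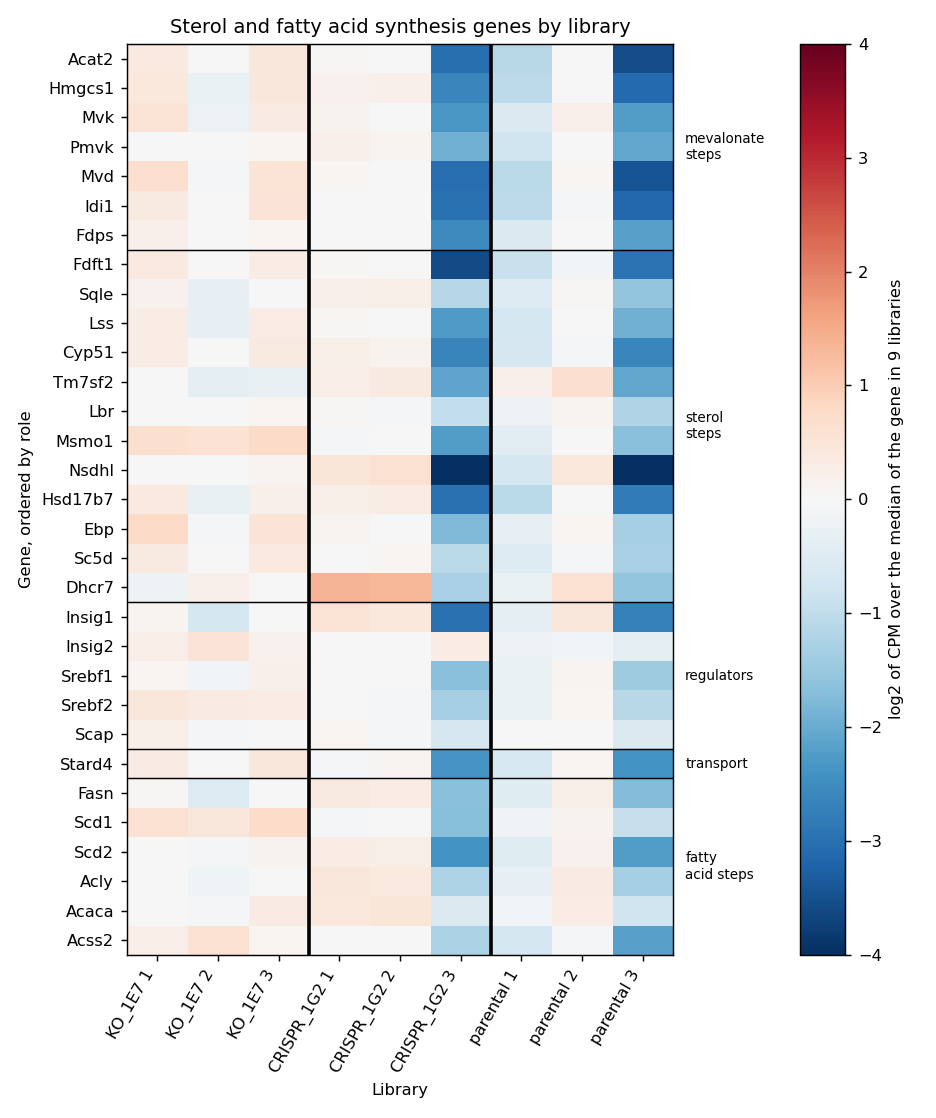
Each cell is the log2 of a gene's CPM over the median of that gene in the 9 libraries, with genes in rows by role and libraries in columns (KO_1E7, CRISPR_1G2, parental). Blue cells run down the columns of CRISPR_1G2 3 and parental 3 in 30 of the 31 tested genes, Insig2 being the exception, and no such column is seen for KO_1E7 3.

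Promoter sequences are shown for the genes with the largest estimates for a term for NSG that had one, and for 1 gene of another role, because these genes differed together between libraries. RefSeq promoters on GRCm38.p6, running from 250 bases before to 50 bases after the start of the transcript, were given for 27 of the 34 genes. They are printed 5′ to 3′ in the direction of the gene, in lower case, with capitals where a script found the CCAAT box (CCAAT), the GC box (GGGCGG) or a sterol regulatory element (TCACNCCAC) on either strand. The windows are Nsdhl, chrX:72918271-72918570 (plus strand), Insig1, chr5:28071162-28071461 (plus strand), Mvd, chr8:122443373-122443672 (minus strand), Acss2, chr2:155517793-155518092 (plus strand) and Hmgcs1, chr13:119690101-119690400 (plus strand). Hmgcs1 was added after its match to the sterol element was seen.
Nsdhl: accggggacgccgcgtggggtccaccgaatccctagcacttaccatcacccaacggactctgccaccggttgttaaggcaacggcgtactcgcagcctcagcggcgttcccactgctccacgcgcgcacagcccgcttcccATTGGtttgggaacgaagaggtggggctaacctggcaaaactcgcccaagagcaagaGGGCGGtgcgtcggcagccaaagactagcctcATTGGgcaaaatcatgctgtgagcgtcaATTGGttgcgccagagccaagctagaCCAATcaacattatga
Insig1: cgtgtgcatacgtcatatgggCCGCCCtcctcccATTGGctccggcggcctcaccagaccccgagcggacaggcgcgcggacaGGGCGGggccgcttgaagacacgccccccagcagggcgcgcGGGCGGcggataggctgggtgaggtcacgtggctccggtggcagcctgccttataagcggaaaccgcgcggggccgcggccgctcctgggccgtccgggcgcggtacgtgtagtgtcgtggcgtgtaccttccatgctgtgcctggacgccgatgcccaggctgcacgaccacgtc
Mvd: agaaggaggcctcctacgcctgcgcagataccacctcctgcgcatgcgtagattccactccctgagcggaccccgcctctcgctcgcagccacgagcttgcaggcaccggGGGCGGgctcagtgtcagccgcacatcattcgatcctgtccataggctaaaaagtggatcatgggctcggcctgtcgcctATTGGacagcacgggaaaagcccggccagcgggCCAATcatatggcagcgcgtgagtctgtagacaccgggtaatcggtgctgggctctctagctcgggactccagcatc
Acss2: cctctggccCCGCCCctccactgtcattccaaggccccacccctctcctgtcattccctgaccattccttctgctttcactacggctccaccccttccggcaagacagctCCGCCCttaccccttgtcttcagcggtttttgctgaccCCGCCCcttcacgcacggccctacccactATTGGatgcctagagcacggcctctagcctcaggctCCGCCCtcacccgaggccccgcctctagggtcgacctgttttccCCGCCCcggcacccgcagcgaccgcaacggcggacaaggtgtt
Hmgcs1: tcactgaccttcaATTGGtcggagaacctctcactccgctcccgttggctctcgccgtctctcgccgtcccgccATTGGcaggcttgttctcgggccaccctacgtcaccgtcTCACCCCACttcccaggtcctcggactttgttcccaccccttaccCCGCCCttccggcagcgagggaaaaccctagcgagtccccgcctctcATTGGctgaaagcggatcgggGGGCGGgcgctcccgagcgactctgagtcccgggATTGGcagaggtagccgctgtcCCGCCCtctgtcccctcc

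CCAAT stood in the promoters of 23 of the 27 genes, and in 68.6% of their 35 promoters against 37.4% of all 32851 RefSeq mouse promoters of this length. GGGCGG stood in the promoters of 24 of the 27, and in 80.0% of the 35 against 35.7% of all. TCACNCCAC was found in 1 of the 27, Hmgcs1, at base 114 of its window, against 1.24% of all promoters. In the 5 windows shown no match overlapped another. These are matches of letters in a short window, not measured binding.

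Most mevalonate genes stood highest in KO_1E7 1 and 3, and all of them lowest in parental 3 and CRISPR_1G2 3. Acat2, which joins acetyl-CoA units in the cytosol, had 242, 183 and 257 CPM in KO_1E7, 192, 186 and 23.2 CPM in CRISPR_1G2 and 86.4, 189 and 15.8 CPM in parental. Hmgcs1, the HMG-CoA synthase of the cytosol, had 592, 368 and 599.9 CPM in KO_1E7, 499, 510.5 and 71.9 CPM in CRISPR_1G2 and 212, 440.5 and 51.4 CPM in parental. In both genes the NSG-named library of the parental line was the lowest of the 9, that of CRISPR_1G2 came next, and that of KO_1E7 was the highest. Mvk, which phosphorylates mevalonate, had 93.3, 53.9 and 79.6 CPM in KO_1E7, 69.5, 63.2 and 12.6 CPM in CRISPR_1G2 and 42.0, 72.6 and 13.4 CPM in parental. Pmvk, the kinase of the next step, had 116, 114 and 124 CPM in KO_1E7, 135, 126 and 30.8 CPM in CRISPR_1G2 and 67.1, 118 and 27.4 CPM in parental. Pmvk was the most even gene of this role within KO_1E7, at 118 ± 4.81 CPM (SD, n = 3), where Hmgcs1 was at 520.1 ± 132 CPM. Mvd, the decarboxylase that makes isopentenyl pyrophosphate, had 116, 69.7 and 106 CPM in KO_1E7, 77.8, 73.1 and 8.82 CPM in CRISPR_1G2 and 34.7, 77.9 and 6.67 CPM in parental. Idi1, the isomerase of that product, had 140.2, 112 and 156 CPM in KO_1E7, 111, 109.8 and 13.9 CPM in CRISPR_1G2 and 53.4, 107 and 12.6 CPM in parental. Fdps, which builds farnesyl pyrophosphate, had 399, 354 and 365 CPM in KO_1E7, 349, 341 and 60.1 CPM in CRISPR_1G2 and 233, 349 and 77.2 CPM in parental. For Idi1 and Fdps every KO_1E7 library lay above every parental and every CRISPR_1G2 library. For KO_1E7 2 the margins over parental 2 and CRISPR_1G2 1 were a few CPM at most. Against CRISPR_1G2 1, KO_1E7 2 stood at 112 against 111 CPM for Idi1 and 354 against 349 CPM for Fdps. Summed over the role, the level was 1699, 1255 and 1688 CPM in KO_1E7, 1433, 1410 and 221 CPM in CRISPR_1G2 and 729, 1354 and 204 CPM in parental.

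Of the sterol enzymes, Nsdhl had the widest range in fold and Lbr the narrowest. Nsdhl, a dehydrogenase that removes a carbon from the sterol, had 85.6, 85.2 and 91.9 CPM in KO_1E7, 119, 129.9 and 5.34 CPM in CRISPR_1G2 and 52.95, 114 and 5.37 CPM in parental. Lbr, which anchors the nuclear lamina and is also a sterol reductase, had 256, 252 and 263 CPM in KO_1E7, 261, 244 and 128 CPM in CRISPR_1G2 and 216, 271 and 110.0 CPM in parental. In parental 3 Nsdhl stood 15.5-fold below the mean of its dated libraries, where Lbr stood 2.21-fold below. Fdft1, the squalene synthase, had 291, 222 and 272 CPM in KO_1E7, 232, 227 and 18.7 CPM in CRISPR_1G2 and 119.5, 205 and 28.9 CPM in parental. Sqle, the squalene epoxidase, had 486, 344 and 429.7 CPM in KO_1E7, 491, 504 and 193 CPM in CRISPR_1G2 and 298, 444 and 144 CPM in parental. Lss, which closes the rings to lanosterol, had 281, 183 and 282 CPM in KO_1E7, 238, 229.9 and 47.5 CPM in CRISPR_1G2 and 141, 229 and 60.9 CPM in parental. Fdft1 spanned the widest range of these, and Sqle in CRISPR_1G2 3 kept a level above that of parental 3, as Lss did not. Cyp51, the lanosterol demethylase, had 606, 496 and 637 CPM in KO_1E7, 583, 547 and 79.9 CPM in CRISPR_1G2 and 314, 466 and 82.0 CPM in parental. Msmo1, the methylsterol oxidase, had 622, 587 and 668 CPM in KO_1E7, 374, 400.4 and 83.8 CPM in CRISPR_1G2 and 288, 397 and 125 CPM in parental. Hsd17b7, a sterol keto reductase, had 156, 95.2 and 137 CPM in KO_1E7, 139, 146 and 14.9 CPM in CRISPR_1G2 and 55.7, 118 and 17.1 CPM in parental. Msmo1 was set apart by its even and high level in KO_1E7, where the lowest library lay above the highest of the other groups. Ebp, the sterol isomerase, had 48.5, 27.7 and 40.4 CPM in KO_1E7, 30.7, 28.6 and 8.49 CPM in CRISPR_1G2 and 22.9, 30.1 and 11.4 CPM in parental. Sc5d, a sterol desaturase, had 260.5, 201 and 261 CPM in KO_1E7, 205, 214 and 95.2 CPM in CRISPR_1G2 and 141, 196 and 81.5 CPM in parental. Sc5d in KO_1E7 lay above every parental library, but its lowest KO_1E7 value lay below CRISPR_1G2 1 and 2. Dhcr7, which reduces dehydrocholesterol to cholesterol, had 76.6, 102 and 88.4 CPM in KO_1E7, 225, 223 and 36.1 CPM in CRISPR_1G2 and 74.0, 135 and 29.4 CPM in parental. Tm7sf2, a sterol reductase that can stand in for Lbr, had 16.8, 12.7 and 13.7 CPM in KO_1E7, 20.0, 21.6 and 3.85 CPM in CRISPR_1G2 and 19.2, 25.9 and 4.003 CPM in parental. Neither gene was led by KO_1E7: Dhcr7 was highest in CRISPR_1G2 1 and 2, and Tm7sf2 in parental 2. Summed over the 12 enzymes, the level was 3185, 2609 and 3184 CPM in KO_1E7, 2917, 2916 and 715 CPM in CRISPR_1G2 and 1742, 2630 and 699 CPM in parental.

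Among the regulators Insig1 ranged widely and Insig2 far less. Insig1, which holds SCAP in the endoplasmic reticulum and is itself switched on by SREBPs, had 404, 230.5 and 373 CPM in KO_1E7, 541, 504 and 46.8 CPM in CRISPR_1G2 and 286, 507 and 56.9 CPM in parental. Insig2, which has the same task, had 51.6, 61.5 and 48.4 CPM in KO_1E7, 43.2, 43.3 and 52.7 CPM in CRISPR_1G2 and 37.0, 40.4 and 34.1 CPM in parental. Insig2 was the exception of the whole set: CRISPR_1G2 3 was its highest library outside KO_1E7, and parental 3 lay within a few CPM of parental 1 and 2. Srebf2, which encodes SREBP2, had 553, 507 and 497 CPM in KO_1E7, 401, 380.2 and 159 CPM in CRISPR_1G2 and 330.2, 422 and 186 CPM in parental. Srebf1, which encodes SREBP1, had 274, 242 and 300.1 CPM in KO_1E7, 260.1, 259.5 and 82.0 CPM in CRISPR_1G2 and 218, 279.6 and 96.0 CPM in parental. Scap had 91.7, 74.5 and 80.2 CPM in KO_1E7, 83.8, 75.8 and 49.3 CPM in CRISPR_1G2 and 78.5, 79.8 and 52.6 CPM in parental. Srebf2 in KO_1E7 lay above every other library, while Srebf1 in KO_1E7 overlapped parental 2 and both dated CRISPR_1G2 libraries. Stard4, which carries cholesterol between membranes inside the cell, had 198, 158 and 215 CPM in KO_1E7, 152, 169 and 30.6 CPM in CRISPR_1G2 and 101, 169 and 30.5 CPM in parental. The cholesterol exporters Abca1 and Abcg1, and Mylip, a ligase that marks lipoprotein receptors for breakdown, were barely detected. Abca1 had 10, 7 and 9 counts in KO_1E7, 6, 6 and 11 in CRISPR_1G2 and 4, 2 and 2 in parental. Abcg1 had 3, 3 and 11 counts in KO_1E7, 0, 1 and 15 in CRISPR_1G2 and 8, 1 and 1 in parental. Mylip had 2, 7 and 6 counts in KO_1E7, 7, 6 and 7 in CRISPR_1G2 and 4, 7 and 2 in parental. These counts were too low for a test, and no direction is read from them.

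The fatty acid genes held the most abundant member of the set, and their low values in parental 3 and CRISPR_1G2 3 were shallower than those of the mevalonate genes. Scd2, a desaturase that makes monounsaturated fatty acids, had 2396, 2309 and 2647 CPM in KO_1E7, 2937, 2802 and 461 CPM in CRISPR_1G2 and 1721, 2689 and 506 CPM in parental. Scd1, its paralog on the same chromosome with 87586 bases between them, had 515, 459 and 554 CPM in KO_1E7, 326, 335 and 103 CPM in CRISPR_1G2 and 306, 371 and 176 CPM in parental. Scd1 in KO_1E7 lay above every library of the other groups, where Scd2 was highest in CRISPR_1G2 1 and 2. Fasn, the fatty acid synthase, had 660.1, 439.9 and 645 CPM in KO_1E7, 826, 784 and 201 CPM in CRISPR_1G2 and 462, 751 and 194 CPM in parental. Acly, which makes cytosolic acetyl-CoA from citrate, had 699, 605 and 688 CPM in KO_1E7, 934, 892 and 291 CPM in CRISPR_1G2 and 543, 868 and 271 CPM in parental. Acaca, the acetyl-CoA carboxylase, had 167, 163 and 211 CPM in KO_1E7, 223, 233 and 112 CPM in CRISPR_1G2 and 155, 204 and 95.8 CPM in parental. Fasn, Acly and Acaca were all highest in the dated libraries of CRISPR_1G2. Acss2, which makes acetyl-CoA from acetate, had 45.1, 56.9 and 39.5 CPM in KO_1E7, 37.6, 38.2 and 15.7 CPM in CRISPR_1G2 and 23.1, 36.2 and 8.42 CPM in parental. Acss2 was lowest in parental 3 and highest in KO_1E7 2, the library in which most other genes of the set stood below KO_1E7 1 and 3. Summed over the 6 enzymes, the level was 4481, 4033 and 4785 CPM in KO_1E7, 5283, 5085 and 1184 CPM in CRISPR_1G2 and 3210, 4920 and 1251 CPM in parental.

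Between genes of the set, levels were also compared per length, as mean RPKM (counts scaled to library size and exon length) of 3 libraries. Scd2 led every group, at 449 in KO_1E7, 379 in CRISPR_1G2 and 300.5 in parental. In the parental line Acly (106), Insig1 (91.5) and Hmgcs1 (72.6) came next. Acss2, at 4.64 in KO_1E7, 3.00 in CRISPR_1G2 and 2.22 in parental, was the lowest of the tested genes per length in CRISPR_1G2 and parental, and Tm7sf2 was in KO_1E7. The sterol reductases Lbr and Tm7sf2 differed widely, Lbr standing at 54.0 in KO_1E7, 44.3 in CRISPR_1G2 and 41.8 in parental, and Tm7sf2 at 4.13 in KO_1E7, 4.34 in CRISPR_1G2 and 4.70 in parental.

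KO_1E7 was set against the parental line to ask whether the clone labelled knockout differs in these genes. The estimates were higher in KO_1E7 for 30 of the 31 tested genes, Tm7sf2 excepted, with a median log2 fold change of 0.76 against -0.028 over all 15766 tested genes. 0 of the 31 passed the test (edgeR adjusted p below 0.05), where 5.42% of all tested genes did. At an unadjusted p below 0.05, 1 gene passed, and DESeq2 called 1, Insig2 in both cases, where DESeq2 called 2358 of all 15766 tested genes. In 10 of the 31 genes every KO_1E7 library lay above every parental library, and in none below, where 34.4% of all tested genes had groups that did not overlap in either direction. The 10 were Idi1, Fdps, Fdft1, Cyp51, Msmo1, Sc5d, Insig2, Srebf2, Scd1 and Acss2.

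Insig2 came nearest the threshold, at 53.8 ± 6.81 CPM in KO_1E7 and 37.2 ± 3.15 CPM in parental (SD, n = 3 each), or a log2 fold change of 0.53 ± 0.14 (SE, edgeR adjusted p = 0.0665). Msmo1 averaged 626 ± 40.6 CPM in KO_1E7 and 270.0 ± 137 CPM in parental, a log2 fold change of 1.21 ± 0.56 (edgeR adjusted p = 0.233). The estimates for Mvd (1.29 ± 0.89), Idi1 (1.24 ± 0.82) and Fdft1 (1.15 ± 0.86) were of like size, with edgeR adjusted p-values of 0.417, 0.399 and 0.456. Their groups were unlike in spread, Idi1 for example standing at 136 ± 22.5 CPM in KO_1E7 and 57.8 ± 47.5 CPM in parental. Acss2 stood at 1.06 ± 0.50, Stard4 at 0.93 ± 0.67, Scd1 at 0.84 ± 0.42 and Srebf2 at 0.73 ± 0.37 (edgeR adjusted p = 0.240, 0.445, 0.268 and 0.275). A term for NSG in the fit called 2 of the 31, Insig2 and Acss2, where 13.1% of all tested genes were called.

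The parental libraries that share a date or NSG with KO_1E7 libraries, parental 1 and 3, were the low ones of their group. Summed over the 34 genes, KO_1E7 1 stood at 10940 CPM against 6732 CPM in parental 1 of the same date. KO_1E7 3 stood at 11170 CPM against 2611 CPM in parental 3, which shares NSG. By the same sums, pairs that share neither were about as far apart, namely KO_1E7 3 against parental 1, and KO_1E7 1 against parental 3. Pairs of CRISPR_1G2 and parental that share a date or NSG were closer. CRISPR_1G2 1 and parental 2 summed to 11110 and 10400 CPM, and CRISPR_1G2 3 and parental 3 to 2541 and 2611 CPM. With a term for the date in the names (NSG as a level of its own), a choice made after seeing the data, 19 of the 31 genes were called, all higher in KO_1E7, where 11.8% of all tested genes were called. The median log2 fold change was then 1.55, with Mvd at 2.90 ± 0.51 (SE, edgeR adjusted p = 0.0285), Msmo1 at 1.90 ± 0.33 (0.0203) and Srebf2 at 1.13 ± 0.20 (0.0178). That fit has 5 levels of the name for 9 libraries, and KO_1E7 2 and CRISPR_1G2 2, alone on their dates, take no part in its estimates. Parental 1 and parental 3, the low parental libraries, therefore weigh more in it. KO_1E7 1 and parental 1, which share a date, did not deviate together from their group means (correlation -0.003). The values thus do not show them to be a pair, and they cannot decide it, since parental 3 weighs on the parental mean. Without parental 3 the median estimate of the set was 0.44, and without parental 2 it was 1.18, against 0.76 with all libraries. In either fit 0 of the 31 were called, where 339 of 16150 and 350 of 16428 genes were called in all, in the same order.

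With parental 3 and CRISPR_1G2 3 left out, a choice made after seeing the data, 6 of the 31 genes were called between KO_1E7 and parental, where 21.0% of all genes tested were. Msmo1, at 622, 587 and 668 CPM in KO_1E7 against 288 and 397 CPM in parental 1 and 2, rose by a log2 fold change of 0.87 ± 0.14 (SE, edgeR adjusted p = 0.00515). Scd1 rose by 0.59 ± 0.11 (edgeR adjusted p = 0.0103), Cyp51 by 0.57 ± 0.17 (0.0478), Insig2 by 0.48 ± 0.12 (0.0264) and Srebf2 by 0.47 ± 0.12 (0.0258). Tm7sf2 fell, at a log2 fold change of -0.65 ± 0.17 (edgeR adjusted p = 0.0279). Over all alternatives run, adjusted p lay between 0.00515 and 0.494 for Msmo1, 0.0103 and 0.495 for Scd1, 0.00984 and 0.177 for Insig2 and 0.0178 and 0.506 for Srebf2, with the estimate higher in KO_1E7 each time. With those 2 libraries left out the median estimate of the 31 genes was 0.43, with 26 higher in KO_1E7. With the dated libraries alone, 3 genes were called, Msmo1 (0.83 ± 0.16), Insig2 (0.56 ± 0.12) and Scd1 (0.54 ± 0.13), all higher in KO_1E7, where 11.0% of all genes were called. Msmo1 (ENSMUSG00000031604, chromosome 8, 64718139 to 64733792 on GRCm38, minus strand) lies on a chromosome whose tested genes had a median log2 fold change 0.34 above that of all genes in this comparison. Scd1 (chromosome 19, 44394451 to 44407709) and Srebf2 (chromosome 15, 82147266 to 82205376) lie on chromosomes whose medians stood at -0.085 and -0.046 from that of all genes. The part of chromosome-wide differences in these results was not tested.

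**Figure D2:**
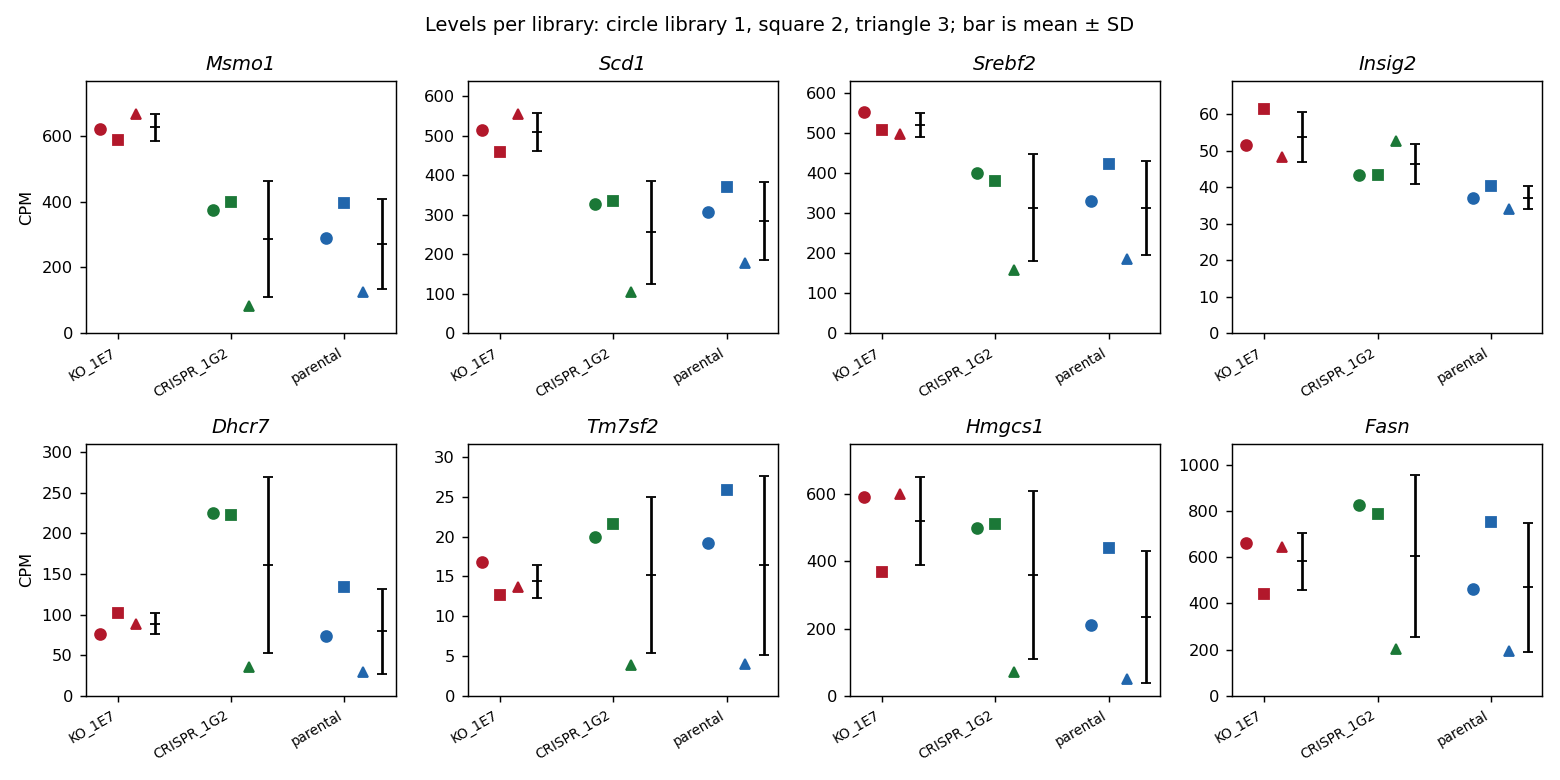
CPM of 8 genes in each library (circle library 1, square 2, triangle 3, the NSG-named one), with KO_1E7, CRISPR_1G2 and parental from left to right and bars at mean ± SD of 3 libraries. Msmo1, Scd1 and Srebf2 show every KO_1E7 point above every other point, Insig2 lacks the low triangles of CRISPR_1G2 and parental, and Dhcr7 shows CRISPR_1G2 1 and 2 above all the rest.

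CRISPR_1G2 was set against the parental line as a clone that went through editing and is labelled wild type. In edgeR 0 of the 31 genes were called, with 0 at an unadjusted p below 0.05 and 0 by DESeq2, where 0.254% of all tested genes were called in edgeR. The estimates were higher in CRISPR_1G2 for 28 of the 31 genes, with a median log2 fold change of 0.33 against 0.020 over all tested genes, and the count moved with single libraries. Without parental 3 the estimates were higher in CRISPR_1G2 for 11 of the 31, with a median of -0.052, without CRISPR_1G2 1 for 17 (0.055) and without CRISPR_1G2 2 for 19 (0.11). Without CRISPR_1G2 3 and without parental 2 they were higher for all 31, with medians of 0.70 and 0.84. With the term for the date they were higher for 7 of the 31, with a median of -0.20 and 0 called, where 0.209% of all tested genes were called. For 1 gene, Insig2, every CRISPR_1G2 library lay above every parental library, with groups that did not overlap in either direction in 13.1% of all tested genes. Insig2 averaged 46.4 ± 5.46 CPM in CRISPR_1G2 and 37.2 ± 3.15 CPM in parental, a log2 fold change of 0.32 ± 0.14 (SE, edgeR adjusted p = 0.651). Dhcr7 (ENSMUSG00000058454, chromosome 7, 143823145 to 143848410, plus strand) averaged 162 ± 109 CPM in CRISPR_1G2 and 79.3 ± 52.8 CPM in parental, the largest estimate of the set at 1.03 ± 0.68 (edgeR adjusted p = 0.818). Hsd17b7 stood at 0.65 ± 0.82, Hmgcs1 at 0.62 ± 0.80, Acat2 at 0.46 ± 0.87 and Acss2 at 0.43 ± 0.50, with edgeR adjusted p-values of 0.934, 0.935, 0.968 and 0.923. Fasn stood at 0.36 ± 0.57, Insig1 at 0.36 ± 0.88 and Stard4 at 0.23 ± 0.67, with edgeR adjusted p-values of 0.959, 0.982 and 0.985. With parental 3 and CRISPR_1G2 3 left out, 0 of the 31 were called, where 0.265% of all genes were.

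Set against each other, KO_1E7 had the higher mean of Msmo1, Srebf2 and Scd1 and CRISPR_1G2 the higher mean of Dhcr7. In edgeR 0 of the 31 genes were called, with 1 (Scd1) at an unadjusted p below 0.05 and 0 by DESeq2, where 12.7% of all tested genes were called in edgeR. The median log2 fold change was 0.49, against -0.032 over all tested genes, with 25 of 31 estimates higher in KO_1E7; without CRISPR_1G2 3 the median was 0.080, with 20 higher. The term for the date called 18 of the 31, all higher in KO_1E7, where 14.3% of all tested genes were called, with a median of 1.86. Scd1 averaged 509 ± 47.9 CPM in KO_1E7 and 255 ± 131 CPM in CRISPR_1G2, a log2 fold change of 1.00 ± 0.42 (SE, edgeR adjusted p = 0.158). Msmo1 stood at 1.13 ± 0.56 and Srebf2 at 0.73 ± 0.37, and a term for NSG in the fit called these 2 and Scd1, where 21.1% of all tested genes were called. Dhcr7 stood at -0.86 ± 0.67, with 89.0 ± 12.7 CPM in KO_1E7 and 162 ± 109 CPM in CRISPR_1G2 (edgeR adjusted p = 0.440). Mvd (0.87 ± 0.88), Idi1 (0.80 ± 0.81), Stard4 (0.70 ± 0.67), Acss2 (0.63 ± 0.50) and Srebf1 (0.44 ± 0.47) did not pass, with edgeR adjusted p-values between 0.443 and 0.582. In 6 genes every KO_1E7 library lay above every CRISPR_1G2 library (Idi1, Fdps, Msmo1, Srebf2, Scd1 and Acss2), where 38.6% of all tested genes had groups that did not overlap in either direction. The 3 pairwise comparisons share libraries, so their values are not independent of each other. A test for any difference among the 3 groups called 0 of the 31 in edgeR, with 1 at an unadjusted p below 0.05 and 1 by DESeq2. Of all 15766 tested genes, edgeR called 8.54% in it and DESeq2 called 3298.

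With parental 3 and CRISPR_1G2 3 left out, 5 of the 31 genes were called between the clones, where 29.1% of all genes were. Msmo1 (log2 fold change 0.70 ± 0.14, SE, edgeR adjusted p = 0.00711), Scd1 (0.63 ± 0.12, 0.00539) and Srebf2 (0.42 ± 0.12, 0.0284) rose in KO_1E7. Dhcr7, at 76.6, 102 and 88.4 CPM in KO_1E7 against 225 and 223 CPM in CRISPR_1G2 1 and 2, fell, at a log2 fold change of -1.32 ± 0.24 (edgeR adjusted p = 0.00755). Tm7sf2 fell, at -0.52 ± 0.17 (edgeR adjusted p = 0.0461). Over all alternatives run, adjusted p lay between 0.00711 and 0.444 for Msmo1, 0.00539 and 0.326 for Scd1, 0.0160 and 0.415 for Srebf2 and 0.00755 and 0.687 for Dhcr7. The direction was the same each time, except that Dhcr7 stood at 0.66 ± 0.46 with the term for the date (edgeR adjusted p = 0.361). With those 2 libraries left out the median estimate of the 31 genes was 0.075, with 20 higher in KO_1E7. With the dated libraries alone, Msmo1 (0.66 ± 0.16), Scd1 (0.58 ± 0.13) and Dhcr7 (-1.31 ± 0.29) were called, where 19.8% of all genes were. Chromosome 7, which holds Dhcr7, had a median log2 fold change of -0.53 between the clones, and chromosome 8, which holds Msmo1, one of 0.34, against -0.032 over all tested genes; their part in these results was not tested.

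The largest differences lay within groups, between the NSG-named library and the dated ones. In CRISPR_1G2 3, 28 of the 31 genes stood at least 2-fold below the mean of the dated libraries of that clone, where 7.73% of all tested genes did. In parental 3, 27 of the 31 did, where 4.81% of all tested genes did, and 26 were in both counts, where 3.69% of all were. In KO_1E7 3, 0 of the 31 did, where 1.03% of all tested genes did. Parental 3 and CRISPR_1G2 3 were the lowest pair among the 9 libraries in 30 of the 31 genes, where 19.9% of all tested genes had them lowest. These genes had been seen to be low in these libraries in earlier work on the same data, so the counts describe the set and do not support it independently.

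On the log2 scale of CPM plus 0.5, the median difference of the NSG-named library from the mean of its dated libraries was 0.12 in KO_1E7, -2.29 in CRISPR_1G2 and -1.75 in parental, against -0.0070, -0.010 and -0.019 over all tested genes. The mevalonate genes were deepest, with medians of 0.20 in KO_1E7, -2.80 in CRISPR_1G2 and -2.63 in parental. The sterol enzymes had medians of 0.095, -2.29 and -1.70 in the same order, the fatty acid enzymes 0.18, -1.66 and -1.51, and the regulators -0.050, -1.29 and -1.01. Nsdhl (ENSMUSG00000031349, chromosome X, 72918557 to 72958514, plus strand) lay 23.3-fold below its dated mean in CRISPR_1G2 3 and 15.5-fold below in parental 3. No other of the 15766 tested genes had a lower difference in parental 3, and 1 had in CRISPR_1G2 3. Fdft1 was 12.3-fold lower in CRISPR_1G2 3 and 5.63-fold lower in parental 3, and Insig1 11.2-fold and 6.96-fold. Acat2 was 8.14-fold lower in CRISPR_1G2 3 and 8.74-fold lower in parental 3, the 7th lowest of all tested genes there. At the shallow end, Scap was 1.62-fold lower in CRISPR_1G2 3 and 1.504-fold lower in parental 3, and Acaca 2.04-fold and 1.88-fold. Insig2 differed by a log2 of 0.28 in CRISPR_1G2 3 and -0.18 in parental 3.

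**Figure D3:**
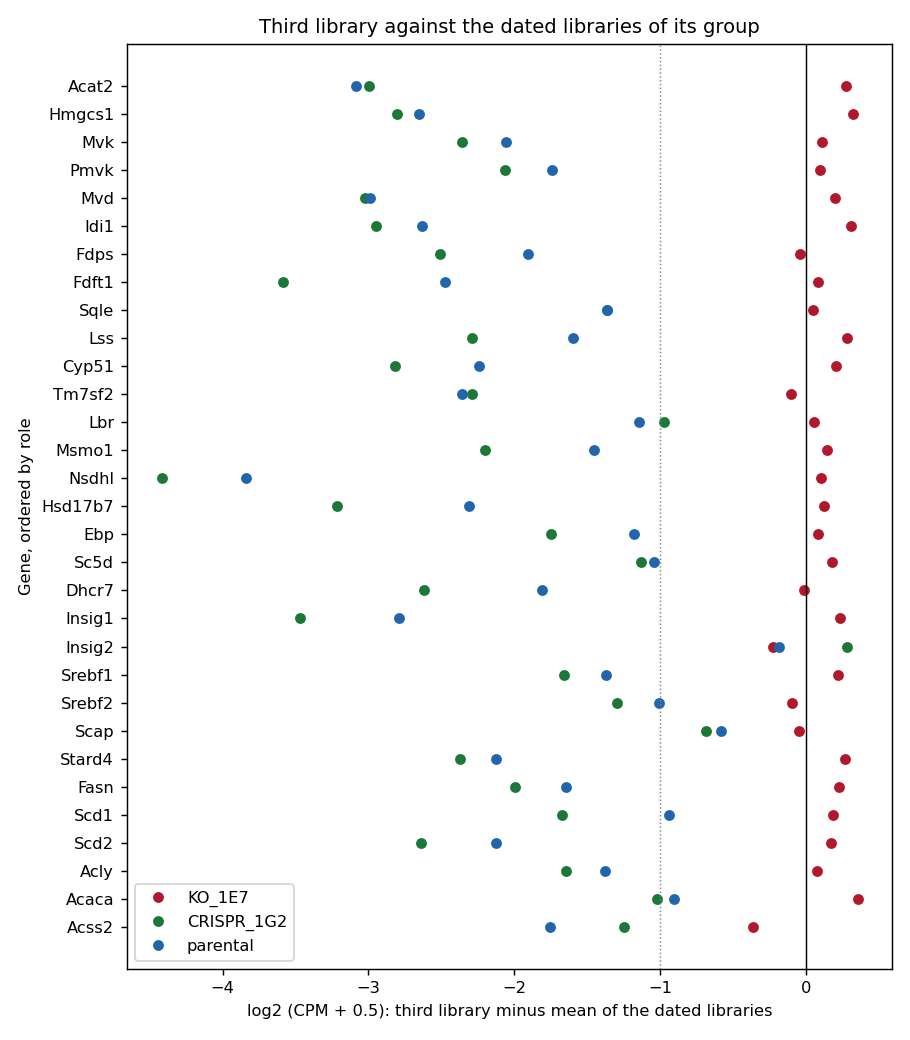
For each of the 31 tested genes, the log2 (CPM + 0.5) of library 3, the NSG-named one, minus the mean of libraries 1 and 2 of the same group, with a dotted line at 2-fold lower. KO_1E7 points lie near 0 (-0.36 to 0.35), while those of CRISPR_1G2 (-4.42 to 0.28) and parental (-3.84 to -0.18) lie to the left in nearly every gene.

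**Figure D4:**
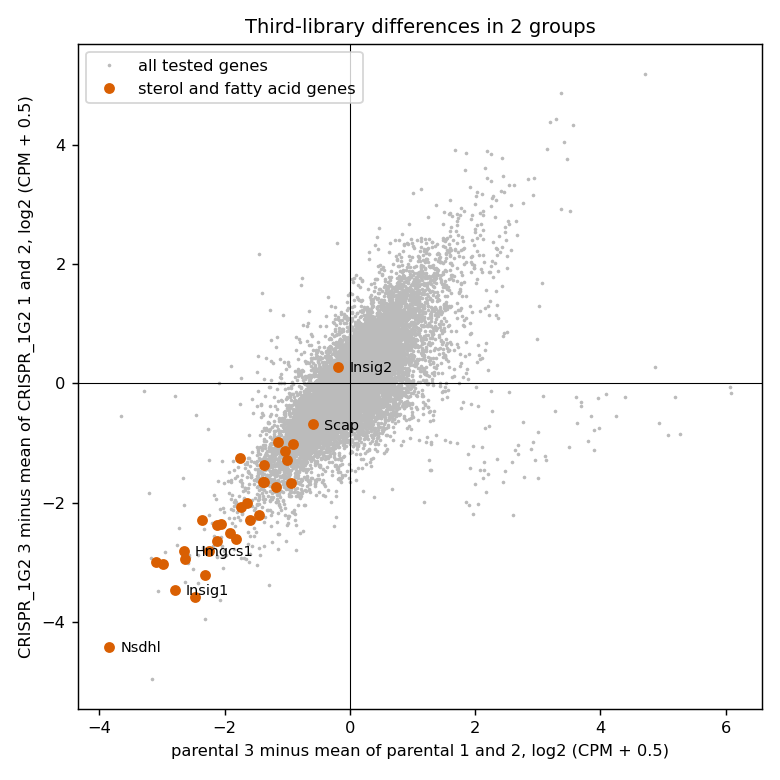
Each point is a tested gene, with the difference of parental 3 from the mean of parental 1 and 2 on the x axis and that of CRISPR_1G2 3 from the mean of CRISPR_1G2 1 and 2 on the y axis, both in log2 (CPM + 0.5). The sterol and fatty acid genes (orange) reach the lower left corner, with Nsdhl at -3.84 and -4.42, and Insig2 and Scap stay near the centre.

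A term for NSG across all 9 libraries, with the groups as covariates, called 0 of the 31 genes in edgeR, as it called 0.0% of all tested genes. All 31 estimates were lower in the NSG-named libraries, with a median log2 difference of -1.15 (-1.95 without KO_1E7 3 and -0.76 without CRISPR_1G2 3). The lowest edgeR adjusted p among them was 0.0773 (Acss2). DESeq2 called 21 of them lower, where it called 10.5% of all tested genes lower. With KO_1E7 3 left out, edgeR called 30 of them lower, all but Insig2, where it called 20.0% of all genes lower. Nsdhl then stood at -4.25 ± 0.37 and Hmgcs1 at -2.75 ± 0.36 on the log2 scale (SE).

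Whether the NSG-named library of KO_1E7 differed from its dated libraries as those of the other groups did was tested as a difference of differences. Of the 31 genes, 27 were called, all higher in KO_1E7, with a median log2 difference of 2.175 against 0.012 over all tested genes. Of all tested genes, 11.1% were called in either direction and 6.96% as higher. Insig1 stood at 3.37 ± 0.53 (SE, edgeR adjusted p = 0.0219), Acat2 at 3.35 ± 0.54 (0.0234) and Mvd at 3.28 ± 0.63 (0.0325). Fasn stood at 2.05 ± 0.41 (edgeR adjusted p = 0.0330) and Scd1 at 1.495 ± 0.19 (0.0128). The 4 genes not called were Ebp (1.60 ± 0.41, edgeR adjusted p = 0.0561), Acss2 (1.18 ± 0.33, 0.0675), Scap (0.59 ± 0.19, 0.0943) and Insig2 (-0.28 ± 0.18, 0.359). Each group had 1 NSG-named library, so the spread in this test came from the dated pairs alone. The count fell to 0 without CRISPR_1G2 1 or without CRISPR_1G2 2, where 2 of 16637 and 2 of 16582 genes were called in all. It fell to 4 without CRISPR_1G2 3, where 112 of 16369 genes were called, and to 18 without KO_1E7 2, where 2257 of 16415 were. The median estimate lay between 1.87 and 2.325 in the fits that left out 1 library. Without the filter on low counts 19 of the 31 were called, where 8.9% of all genes were, and Nsdhl, Acat2 and Insig1 were among the 11 that lost the call.

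Other measures were set beside the low libraries. The 17 listed target genes of p53, a tumour suppressor, were all tested and summed to 1601, 1621 and 1607 CPM in KO_1E7, 2034, 2437 and 8613 CPM in CRISPR_1G2 and 1768, 1475 and 4429 CPM in parental. CRISPR_1G2 3 and parental 3 had the highest sums of these targets and the lowest of the sterol and fatty acid genes, as the plot of summed levels shows. Mdm2 alone gave 3910 CPM of the sum in CRISPR_1G2 3 and 1857 CPM in parental 3. The exceptions among the 17 were Tnfrsf10b, lowest in parental 3 (57.8 CPM), and Bax, at 126 CPM in parental 3 and 131.5 CPM in parental 2. The share of CT010467.1 was raised in parental 3 alone, at 15.3%, and stood at 0.624% in CRISPR_1G2 3. The epithelial marker sum was 714 CPM in CRISPR_1G2 3 and 1134 CPM in parental 3, each the lowest of its group, but KO_1E7 3, at 1167 CPM, was the lowest of its group too. The part of these measures in the low levels of the set was not tested.

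**Figure D5:**
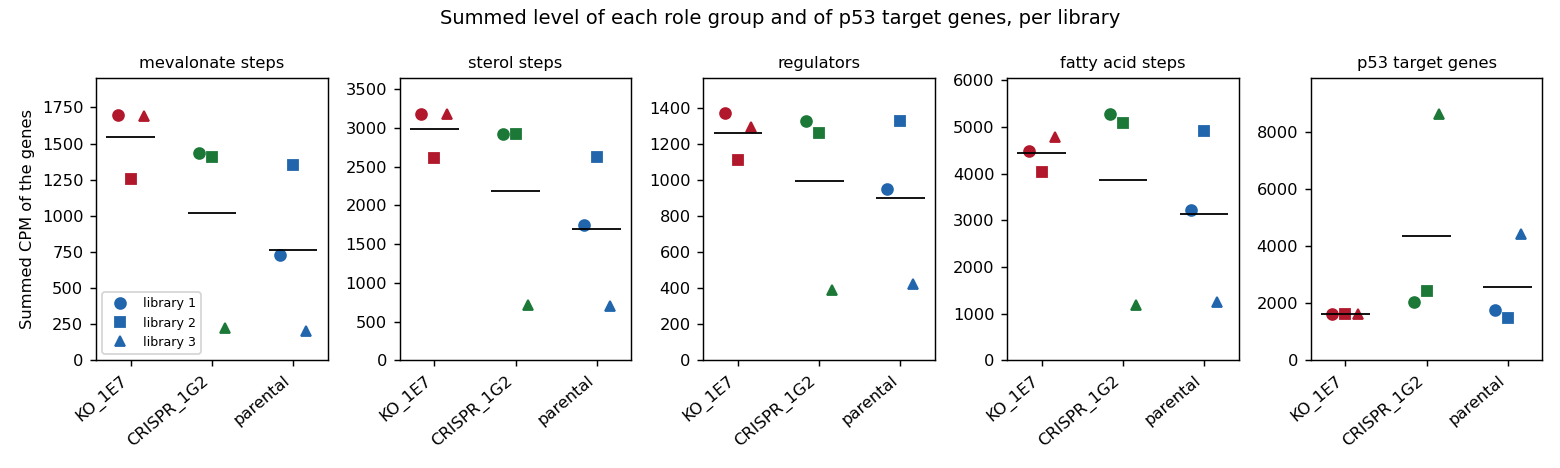
Summed CPM of the genes of 4 roles and of 17 p53 target genes in each library (circle library 1, square 2, triangle 3), with a line at the mean of the 3 libraries of KO_1E7, CRISPR_1G2 and parental from left to right. The triangles of CRISPR_1G2 and parental lie lowest in every role, at 221 and 204 CPM for the mevalonate genes, and highest for the p53 targets, at 8613 and 4429 CPM.

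The dated libraries also differed within their groups. Parental 1 lay below parental 2 in 31 of the 31 genes, where 51.6% of all tested genes did, with sums of 6732 and 10400 CPM. KO_1E7 2 lay below both KO_1E7 1 and KO_1E7 3 in 27 of the 31, where 37.8% of all tested genes did. The 4 genes outside this pattern were Dhcr7, Insig2, Srebf2 and Acss2. CRISPR_1G2 1 and 2 were close, for example 583 and 547 CPM for Cyp51 and 826 and 784 CPM for Fasn.

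Beyond the set, 36 other genes of sterol, isoprenoid and fatty acid metabolism were listed, and 36 of 36 were tested. In the difference of differences, 11 of them were called higher and 1 lower in KO_1E7, with a median log2 difference of 0.45, where 6.96% of all tested genes were called higher and 11.1% in either direction. Fads2, a fatty acid desaturase, had 196, 157 and 182 CPM in KO_1E7, 217, 217 and 32.0 CPM in CRISPR_1G2 and 159, 236 and 38.6 CPM in parental. Elovl6, which lengthens fatty acids, had 302, 280.5 and 336 CPM in KO_1E7, 376, 347 and 82.3 CPM in CRISPR_1G2 and 183, 343 and 72.2 CPM in parental. Both followed the set, with differences of 2.604 ± 0.30 for Fads2 and 2.21 ± 0.41 for Elovl6 (SE, edgeR adjusted p = 0.0122 and 0.0285). Among the others called higher were Pdss2, Mbtps1, Slc25a1, Me1, Tecr, Hsd17b12, Acsl3 and Acsl5, between 0.78 ± 0.18 for Pdss2 and 1.87 ± 0.18 for Acsl5, and the 1 called lower was Gpam (-0.82 ± 0.18). Summed over the 36 genes, the level was 4452, 4039 and 4436 CPM in KO_1E7, 4288, 4261 and 2375 CPM in CRISPR_1G2 and 3613, 4295 and 2531 CPM in parental.

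Between groups, 1 of the 36 was called higher and 3 lower in KO_1E7 than in parental, 2 higher and 4 lower in KO_1E7 than in CRISPR_1G2, and 0 in CRISPR_1G2 against parental. Of all tested genes 5.42%, 12.7% and 0.254% were called in these comparisons, in the same order. Nr1h3, which encodes the oxysterol receptor LXR alpha, fell in KO_1E7 against parental (-2.79 ± 0.50, SE, edgeR adjusted p = 0.0226) and against CRISPR_1G2 (-3.08 ± 0.51, 0.00829). Its levels were 0.113, 0.549 and 0.298 CPM in KO_1E7, 2.87, 1.89 and 3.63 CPM in CRISPR_1G2 and 2.54, 2.35 and 1.97 CPM in parental, all low, and those of KO_1E7 lay below all others. Fads3 fell in KO_1E7 against parental (-1.35 ± 0.20, edgeR adjusted p = 0.0147) and against CRISPR_1G2 (-0.75 ± 0.20, 0.0442). Pdss1, which makes the side chain of ubiquinone, fell in KO_1E7 (-0.61 ± 0.15 against parental, edgeR adjusted p = 0.0498). Erlin2, which helps clear sterol-regulated proteins from the endoplasmic reticulum, rose in KO_1E7 (0.54 ± 0.13 against parental, edgeR adjusted p = 0.0473, and 0.62 ± 0.13 against CRISPR_1G2, 0.0180). It lies on chromosome 8, whose tested genes had median log2 fold changes of 0.313 and 0.343 in these comparisons. The part of that difference in the result was not tested. Against CRISPR_1G2, Npc2, a carrier of cholesterol in lysosomes, rose in KO_1E7 (0.63 ± 0.13, edgeR adjusted p = 0.0192), and Mbtps2, a protease that releases SREBPs, fell (-0.69 ± 0.13, 0.0146). Mbtps2 lies on chromosome X, whose tested genes had a median log2 fold change of -0.331 between the clones, and the part of that was not tested. Pdss1 also fell against CRISPR_1G2 (-0.58 ± 0.15, 0.0373).

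Some counts may be shared with neighbours, since the library kit does not mark strand. On the exon coordinates of the deposited tables, Fdft1 shares 26.8% of its exon bases with Ctsb on the opposite strand, Scap 13.2% with 5830462I19Rik and Lbr 9.24% with Dnah14. Fdps shares 26.7% with Gm43738 on its own strand, which had 11 counts over all libraries. Tm7sf2 shares 15.3% with Vps51 on its own strand, and Tm7sf2 had the lowest counts of the tested sterol enzymes, so its values are uncertain. Scd1 and Scd2 are paralogs whose reads could have been split between them in counting.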

How the data were processed

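The kit, NEBNext Ultra II RNA after oligo-dT capture, does not mark strand; the kit is named per the labels' protocols. The submitters' processing notes name bcl2fastq 2.17 for demultiplexing, STAR 2.5.2b and the build GRCm38 for alignment, featureCounts of Subread 1.5.2 for counting, and DESeq2; which annotation release and strand setting served is not given in the sources used here. In all, the authors deposited raw counts per gene, 1 table for the series and 1 per sample, which differed in 0 cells and left 0 columns unused. The 92 spike-in controls (0.344% to 0.82% of counts) entered neither library sizes nor tests. Libraries of a group differed far beyond sampling noise (chi-square per gene 7.90 to 670.0), so all 9 were counted. Nothing says that they came from separate cultures, so p-values speak only of the spread among these libraries, part of which can be technical.

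All genes passing edgeR's filter on low counts (15766) were fitted at once in R 4.3.3 with edgeR 4.0.16, the robust quasi-likelihood F-test on TMM-scaled counts of all 9 libraries, and p-values were adjusted by Benjamini-Hochberg over all of them and called at 0.05. CPM used the TMM-scaled library sizes, RPKM the exon lengths of the deposited tables, and differences of an NSG-named library from the dated ones a pseudocount of 0.5 CPM. The fits were checked on simulated data. Exact permutation of 3 against 3 libraries reaches no p under 0.1, so no exact permutation test of single genes was used. Same-numbered libraries of CRISPR_1G2 and parental deviated together (correlations 0.243, 0.469 and 0.647 for numbers 1, 2 and 3), so a replicate block was fitted there as an alternative and called 37 genes against 40, with 0 of the set in both. The dates in the names are shared by other pairs, and a term for the date was fitted as well. CRISPR_1G2 1 and parental 2 deviated together (correlation 0.54), but KO_1E7 1 and parental 1 did not (-0.003). All these are deviations from means of 3 libraries, and library 3 stood far from 1 and 2 in CRISPR_1G2 and parental. CRISPR_1G2 2 and parental 2, of unlike dates, also deviated together (0.469). The correlations therefore cannot decide pairing by date or by number. Alternatives were DESeq2 1.42.0, RLE factors, no filter, a block, terms for NSG and for the date, only the groups compared, and each library left out. Values in every library were given for all tested genes, and fold changes for the 2 genes of each role with the largest estimates in each pairwise comparison. Promoters were those of RefSeq. A gene of the list beyond the set is counted in its totals and is not otherwise reported here. The genes, lists and tests were chosen with earlier results of these data known, among them the low levels of such genes in parental 3 and CRISPR_1G2 3.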

Additional observations from a re-analysis of the deposited data

Results flagged for a closer look

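The difference between the NSG-named library and the dated ones was itself different in KO_1E7 from that in the other groups for 27 of the 31 tested genes, by edgeR's test of that difference at adjusted p below 0.05. In each of them KO_1E7 3 stood near the dated libraries of its clone while CRISPR_1G2 3 and parental 3 stood below theirs. Among the genes whose fold changes the text gives, the log2 difference of differences was 3.35 for Acat2, 3.06 for Hmgcs1, 3.28 for Mvd and 3.15 for Idi1 in the mevalonate steps. It was 3.14 for Fdft1, 1.97 for Msmo1, 2.92 for Hsd17b7 and 2.22 for Dhcr7 among the sterol enzymes. It was 3.37 for Insig1, 1.74 for Srebf1 and 1.06 for Srebf2 among the regulators, 2.54 for Stard4, and 2.05 for Fasn and 1.495 for Scd1 among the fatty acid enzymes. What the NSG-named libraries have in common is not given, and the cause was not tested.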

How the results depend on the processing

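The count of called genes of the set was 0 in CRISPR_1G2 against parental under every alternative run. In KO_1E7 against parental it was 0 as reported, 1 with DESeq2, 1 with the replicate block (Acss2), 2 with a term for NSG, 19 with a term for the date, 6 when parental 3 and CRISPR_1G2 3 were dropped and 3 with the dated libraries alone, and 0 to 1 with single libraries left out (1, Insig2, without CRISPR_1G2 3). Of all 15766 tested genes, DESeq2 called 2358 in that comparison and the replicate block 1298. Without CRISPR_1G2 3, 1998 of 16369 genes were called. In KO_1E7 against CRISPR_1G2 it was 0 as reported, 3 with a term for NSG, 18 with a term for the date, 5 with those libraries left out and 3 with the dated libraries alone, and 0 with single libraries left out. For any difference among the groups it was 0 as reported, 1 with DESeq2, 2 with a term for NSG, 14 with a term for the date, 6 and 4 with those sets of libraries left out, and 0 with single libraries left out. Of all 15766 tested genes, DESeq2 called 3298 there, the term for NSG 2676 and the term for the date 1435. With those sets of libraries left out, 4261 of 15837 and 2292 of 15749 genes were called. For NSG it was 0 as reported, 21 with DESeq2, 2 without the filter and 0 to 30 with single libraries left out (1, Acss2, without KO_1E7 1, and 30 without KO_1E7 3). The NSG term called 1584 of 31003 genes without the filter and 1141 of 16402 without KO_1E7 1. For the difference of differences it was 27 as reported and 0 to 28 with single libraries left out (0 without CRISPR_1G2 1 or 2, 4 without CRISPR_1G2 3, 18 without KO_1E7 2); the fit without KO_1E7 3 could not be made, since that group then has no NSG-named library. Without the filter it was 19: 11 genes lost the call (Acat2, Hmgcs1, Mvk, Mvd, Idi1, Lss, Nsdhl, Hsd17b7, Dhcr7, Insig1 and Fasn, with edgeR adjusted p between 0.0580 and 0.202) and Ebp, Scap and Acss2 gained it. The cause was not tested. Among all genes, the difference of differences called 2 of 16637 without CRISPR_1G2 1, 2 of 16582 without CRISPR_1G2 2 and 112 of 16369 without CRISPR_1G2 3. Without KO_1E7 2 it called 2257 of 16415. Leaving out parental 3 and CRISPR_1G2 3, or all NSG-named libraries, and the term for the date were chosen after seeing the data.

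Estimates of CRISPR_1G2 against parental changed sign in 17 of the 31 genes without parental 3, 11 without CRISPR_1G2 1, 9 without CRISPR_1G2 2 and 21 with the term for the date, none of them called in either fit. Of the genes whose fold changes are given, the sign changed without parental 3 for Acat2, Insig1, Stard4 and Fasn, without CRISPR_1G2 1 for Insig1 and Stard4, and without CRISPR_1G2 2 for Stard4. The term for the date gave -0.10 for Acat2, -0.20 for Hsd17b7, -0.41 for Insig1, -0.34 for Stard4 and -0.079 for Fasn, and 0.66 for Dhcr7 in KO_1E7 against CRISPR_1G2. With single libraries left out, these log2 fold changes ran between -0.052 and 1.39 for Acat2, -0.13 and 1.09 for Insig1, -0.21 and 0.84 for Stard4, and -0.014 and 0.88 for Fasn. Over all genes, calls ranged from 24 to 3330 for KO_1E7 against parental (854 as reported), 15 to 235 for CRISPR_1G2 against parental (40), 453 to 4615 for KO_1E7 against CRISPR_1G2 (2010), 126 to 4261 for any difference (1347), 0 to 6248 for NSG (0) and 2 to 2931 for the difference of differences (1751). Same-numbered libraries of KO_1E7 did not deviate together with those of parental (-0.003, 0.056 and 0.153) or of CRISPR_1G2 (-0.05, 0.127 and 0.073). Being taken from means of 3 libraries, these values cannot decide whether the numbers pair them. The block called 1298 genes in KO_1E7 against parental and 2614 in KO_1E7 against CRISPR_1G2. Abca1, Abcg1 and Mylip had at most 15 counts in a library.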
